A study of Mus musculus with 15 samples.

Results

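The genes described here are 9 genes of surfactant and of the alveolar type 2 cell, the lung cell that makes surfactant: Sftpa1, Sftpb, Sftpc, Sftpd, Abca3, Lamp3, Napsa, Slc34a2 and S100g. They were chosen by name, and each was read from the probe sets that name it alone, taking the one with the highest mean over all arrays. Of the 9 genes, 8 had such a probe set, out of 18193 genes measured in the same way. Lamp3, which encodes a membrane protein of the lamellar body, was covered only by a probe set that also names Ppid, and no value is given for it.

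RNA of mouse lung was hybridised to single-colour Affymetrix arrays, 3 per group, on mice of mixed background kept without treatment. The groups at 12 months were whole lung of wild type mice and pieces of lung tumours, each from a single tumour, of mutant mice. The mutant genotype includes deleted Smad4, the common partner of the SMAD proteins of TGF-beta and BMP signalling. Those at 7 months were whole lung of wild type mice and of mice with the same mutant genotype, before tumours had formed according to the series design. Each effect is that of the full mutant genotype. The sources used here do not give the promoter that drove the deletion, and the labels do not say whether an array holds 1 animal.

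Alveolar type 2 cells line the gas-exchanging air sacs and secrete surfactant, a film of phospholipid and protein that keeps the air sacs from collapsing. The lipid is loaded into lamellar bodies, where the hydrophobic proteins SP-B and SP-C are also packed, while the collectins SP-A and SP-D bind microbes in the airspace. The same cells renew the alveolar lining and can give rise to lung adenocarcinoma.

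The arrays had medians between 90.9 and 99.5 intensity units, and the replicates of a group correlated at 0.982 to 0.994 over genes. At 12 months, the tumours and wild type array 2 carried RNA of Y-linked genes and little Xist, which coats the inactive X chromosome, whereas wild type arrays 1 and 3 showed the female pattern. At 7 months, wild type array 3 had the male pattern and the other 5 arrays showed Xist together with Y-linked RNA, the marks of both sexes. Probes for 18S ribosomal RNA averaged 1121 to 2036 units on the tumours and 5492 to 6933 on the wild type arrays of 12 months. Array numbers only name the arrays, and no animal is stated for any array. The labels give tumours 2 and 3 and the wild type lungs of 12 months different numbers of 1 form and tumour 1 none, so that tumours 2 and 3 are likely from different animals. The tests below measure the spread between these samples, which may be technical in part. Where an array holds RNA of more than 1 animal, that spread is not one between single animals.

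The surfactant protein genes were among the brightest on the array. Over the wild type, mutant and tumour arrays described here, Sftpc ranked between 10 and 38 of 45101 probe sets, and Sftpa1 between 9 and 435. Sftpb ranked between 78 and 615, Sftpd between 67 and 382 and Slc34a2 between 94 and 1114. Abca3 ranked between 633 and 2167, Napsa between 809 and 5596 and S100g between 1469 and 11009. The surfactant protein genes thus stayed among the brightest probe sets on each of these arrays, whereas Napsa and S100g dropped far down the ranks on some. Levels of different genes come from different probes and are not set against each other.

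**Figure D1:**
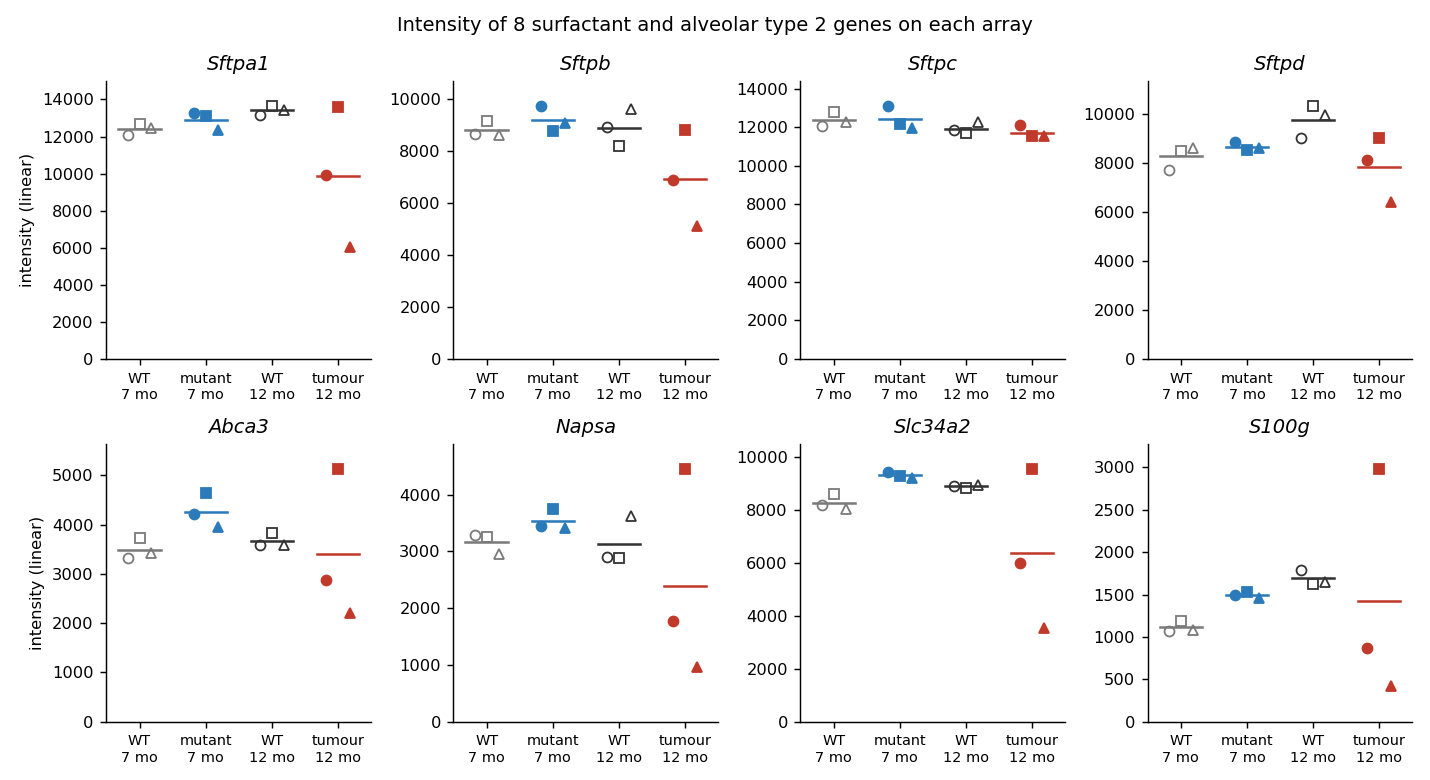
Intensity (linear y axes starting at 0) of the 8 measured genes on every array of the 4 groups, with circles, squares and triangles for arrays 1, 2 and 3 and a line at each group mean. The wild type arrays of a month lie close together, while the 3 tumours spread widely for every gene except Sftpc, from 6026 to 13610 for Sftpa1.

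Among the tumours, 7 of the 8 genes fell in a single order, with tumour 2 highest, tumour 1 between and tumour 3 lowest. Sftpc was the exception. In the same 7 genes, tumour 2 lay above the lowest wild type array of 12 months while tumours 1 and 3 lay below it. That order was found in 19.9% of all 18193 genes, and the position against wild type in 7.68%. Both patterns were noticed in these values and are given as descriptions.

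Sftpa1 encodes SP-A, a collectin that binds microbes and surfactant lipid. It read 13145, 13629 and 13446 units in wild type lung at 12 months (mean 13407 ± 244, SD, n = 3) and 9900, 13610 and 6026 in the tumours (9845 ± 3792, SD, n = 3). Tumour 2 was thus within the wild type range, tumour 1 was 1.35-fold and tumour 3 2.22-fold below the wild type mean. Sftpd, the gene of the other collectin, SP-D, read 9003, 10307 and 9957 units in wild type lung and 8126, 9009 and 6413 in the tumours. Its groups touched only through tumour 2, whose 9009 units stood just above the lowest wild type array.

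Sftpb encodes SP-B, the hydrophobic protein without which surfactant film and lamellar bodies do not form. Its wild type values were 8929, 8179 and 9596 units and its tumour values 6897, 8798 and 5116. Tumour 2 fell inside the wild type range and tumour 3 lay 1.73-fold below the wild type mean. Sftpc, whose product SP-C is made only by type 2 cells in the adult lung, read 11852, 11675 and 12262 units in wild type lung and 12101, 11518 and 11545 in the tumours. The 3 tumours differed by 1.05-fold for Sftpc, as did the 3 wild type arrays. Sftpc was also one of the brightest probe sets, and whether its signal still follows the RNA amount at that brightness was not tested.

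Abca3, the transporter that loads phospholipid into lamellar bodies, read 3580, 3841 and 3587 units in wild type lung and 2884, 5130 and 2202 in the tumours. Tumour 2 was above every wild type array and the other tumours were below every one. Napsa encodes an aspartic protease that takes part in the cleavage of the SP-B precursor. Its wild type values of 2896, 2886 and 3631 units were likewise straddled by the tumours, at 1768, 4453 and 961, a span of 4.58-fold.

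Slc34a2 encodes the sodium-phosphate cotransporter of the type 2 cell, which takes up phosphate released from surfactant lipid. Its wild type values were tight at 8902, 8824 and 8939 units, and the tumours read 5999, 9539 and 3546. S100g encodes calbindin-D9k, a small calcium-binding protein, on the X chromosome. It read 1795, 1627 and 1650 units in wild type lung, the second value being that of the male array, and 866, 2981 and 416 in the tumours. S100g had the widest tumour span of the 8 genes, 6.94-fold, with tumour 2 1.76-fold above and tumour 3 3.95-fold below the wild type mean.

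The upstream sequences of the genes that moved together across the tumours are shown for the 5 of them held in the RefSeq promoter table (build GRCm38.p6), as the 250 bases before the transcription start site, 5′ to 3′ on the gene's strand. Capitals mark matches, on either strand, to CTCAAG, a core bound by NKX2-1, and to TGTTTAC or TGTTTGC, forms bound by FOXA proteins. These letters were found in the same window of 13.3%, 3.17% and 4.30% of 32851 promoter entries.
Sftpa1, chr14:41131538-41131787, plus strand: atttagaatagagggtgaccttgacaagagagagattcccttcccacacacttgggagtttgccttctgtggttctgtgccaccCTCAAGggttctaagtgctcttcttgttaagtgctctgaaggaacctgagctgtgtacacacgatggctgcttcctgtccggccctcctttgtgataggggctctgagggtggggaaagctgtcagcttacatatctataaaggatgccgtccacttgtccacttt
Sftpb, chr6:72304360-72304609, plus strand: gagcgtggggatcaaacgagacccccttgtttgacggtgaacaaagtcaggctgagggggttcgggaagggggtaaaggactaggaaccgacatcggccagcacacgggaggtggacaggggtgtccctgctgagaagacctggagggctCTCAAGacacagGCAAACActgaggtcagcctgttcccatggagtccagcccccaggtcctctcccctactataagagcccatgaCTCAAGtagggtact
Slc34a2, chr5:53049103-53049352, plus strand: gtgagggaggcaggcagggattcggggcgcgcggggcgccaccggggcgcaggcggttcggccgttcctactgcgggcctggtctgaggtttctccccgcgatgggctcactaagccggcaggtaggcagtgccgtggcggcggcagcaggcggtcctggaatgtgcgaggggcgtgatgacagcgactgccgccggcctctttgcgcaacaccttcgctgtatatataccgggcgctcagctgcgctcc
S100g, chrX:162964600-162964849, minus strand: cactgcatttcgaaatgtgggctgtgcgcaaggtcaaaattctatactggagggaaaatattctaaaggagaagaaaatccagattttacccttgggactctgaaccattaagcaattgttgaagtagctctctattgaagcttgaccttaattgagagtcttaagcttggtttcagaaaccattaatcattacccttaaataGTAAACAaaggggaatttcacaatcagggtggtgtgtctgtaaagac
Abca3, chr17:24351773-24352022, plus strand: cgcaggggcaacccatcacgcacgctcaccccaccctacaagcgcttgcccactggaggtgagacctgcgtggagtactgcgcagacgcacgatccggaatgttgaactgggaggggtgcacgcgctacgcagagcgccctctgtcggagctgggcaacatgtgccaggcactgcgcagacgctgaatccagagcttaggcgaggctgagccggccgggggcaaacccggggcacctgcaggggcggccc
Counting the base before the start site as -1, Sftpb held CTCAAG at -100 to -95 and at -15 to -10, with the opposite-strand form of TGTTTGC at -88 to -82 between them. Sftpa1 held CTCAAG at -166 to -161, and S100g the opposite-strand form of TGTTTAC at -47 to -41. None of these letters was in the Slc34a2 or Abca3 window. Of the 6 genes in the table, CTCAAG was found in 2, Sftpb and Sftpa1, and TGTTTAC in 2, S100g and Lamp3. A match here is a run of letters and not a measured binding site.

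**Figure D2:**
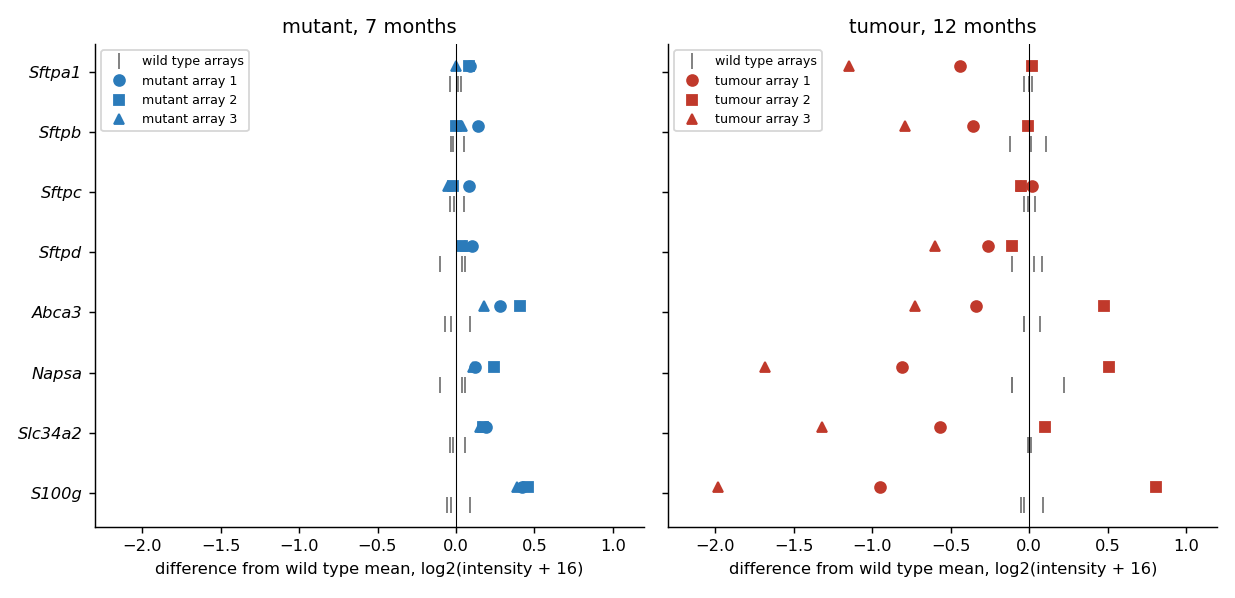
Difference of each mutant array at 7 months (left) and each tumour at 12 months (right) from the wild type mean of its month, in log2(intensity + 16), with circles, squares and triangles for arrays 1, 2 and 3 and vertical ticks for the wild type arrays. Tumour 3 lies farthest to the left for every gene but Sftpc, down to -1.98 for S100g, and the mutant arrays cluster within 0.46 of wild type.

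On the log2(intensity + 16) scale, which slightly understates the changes of dim genes, the means of all 8 genes were lower in the tumours, but none of the differences passed the test. The differences were -0.71 ± 0.66 (SE) for S100g, -0.66 ± 0.52 for Napsa, -0.60 ± 0.34 for Slc34a2 and -0.52 ± 0.28 for Sftpa1. For Sftpb, Sftpd, Abca3 and Sftpc they were -0.39 ± 0.20, -0.33 ± 0.14, -0.20 ± 0.30 and -0.03 ± 0.07. Adjusted p-values of limma ran from 0.183 for Sftpd to 0.854 for Sftpc, and the threshold for a call was 0.05. By limma, 0 of 8 were called in either direction, while 9.23% of all genes were called higher and 6.02% lower. An unadjusted p of limma under 0.05 was reached by 0 of the 8 and by 5595 of all 18193 genes. The groups overlapped for all 8 genes, against 20.5% of all genes with every tumour above and 17.0% with every tumour below the wild type arrays. The median difference of the 8 genes was -0.46, and that of all genes 0.01.

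The intervals leave large differences possible. The 95% interval ran from -2.29 to 0.88 for S100g and from -1.92 to 0.60 for Napsa, but only from -0.20 to 0.15 for Sftpc. For some genes the call depended on tumour 2. Without it, Napsa, Slc34a2 and S100g were called lower, at -1.25, -0.94 and -1.47 with adjusted p-values of limma of 0.0392, 0.0478 and 0.0326. Tumour 2 had been noticed as the highest in these same values, so this is a description. The share of all genes called without it was not counted. Sftpa1, Sftpb, Abca3 and Sftpc were called in none of the alternatives tried. Over the alternatives tried, the adjusted p ran from 0.0392 to 0.869 for Napsa, from 0.0478 to 0.55 for Slc34a2 and from 0.0326 to 0.953 for S100g. Without tumour 3, the differences of S100g, Napsa and Abca3 were -0.07, -0.15 and 0.07. Against the male wild type array alone, the differences were -0.65 for S100g, -0.55 for Napsa, -0.58 for Slc34a2, -0.55 for Sftpa1, -0.27 for Sftpb, -0.41 for Sftpd, -0.26 for Abca3 and 0.01 for Sftpc. These rest on a single wild type array.

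The spread between tumours was itself wide for most of these genes. The SD of log2(intensity + 16) over the tumours was 1.41 for S100g, 1.1 for Napsa, 0.71 for Slc34a2 and 0.62 for Abca3. For Sftpa1, Sftpb and Sftpd it was 0.59, 0.39 and 0.25, and for Sftpc 0.04. The median over genes with a mean log2 of at least 7 was 0.13. Among those genes, 99.9% had a smaller tumour SD than S100g, 98.2% a smaller one than Slc34a2 and 78.4% a smaller one than Sftpd, but only 8.7% a smaller one than Sftpc. Over the wild type arrays of 12 months the SD was at most 0.19, for Napsa.

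Markers of other lung cell types moved between the tumours too. The median difference from wild type of 11 alveolar type 1 markers was -0.67, -0.28 and -1.49 in tumours 1, 2 and 3, and their summed level was 29513, 39332 and 21820 units against 41023 to 45034 in wild type lung. Medians of 8 endothelial markers were -1.16, -0.85 and -1.53, and those of 8 macrophage markers -1.36, -1.27 and -2.19. By their medians, these lists shared tumour 2 as the highest and tumour 3 as the lowest with the surfactant genes, but the medians stayed below wild type in tumour 2 as well. The summed level of the macrophage markers was instead highest in tumour 1, at 22934, 19520 and 12569 units in tumours 1, 2 and 3.

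The lists of airway cell types had the opposite sign. Medians of 8 ciliated cell markers were 1.51, 1.02 and 1.64, of 8 mucous markers 2.13, 1.85 and 2.26, and of 8 measured basal and squamous markers 3.32, 2.71 and 3.51. Tumour 2 was the lowest of the 3 in each of these lists. Krt5, a keratin of basal cells, was called 14.4-fold higher (adjusted p of limma 0.00645), and Muc5b, an airway mucin, 4.96-fold higher (0.0173). Club cell markers, at 0.24, 0.31 and 0.26, barely differed between tumours, and 6 cardiac muscle markers read 1.22, 1.38 and 1.43. The 18S probes read 1943, 2036 and 1121 units on the same arrays. In pieces of tissue, fewer type 2 cells and less RNA per cell cannot be told apart, and the part of these cell types and of RNA quality in the surfactant gene values was not tested.

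**Figure D3:**
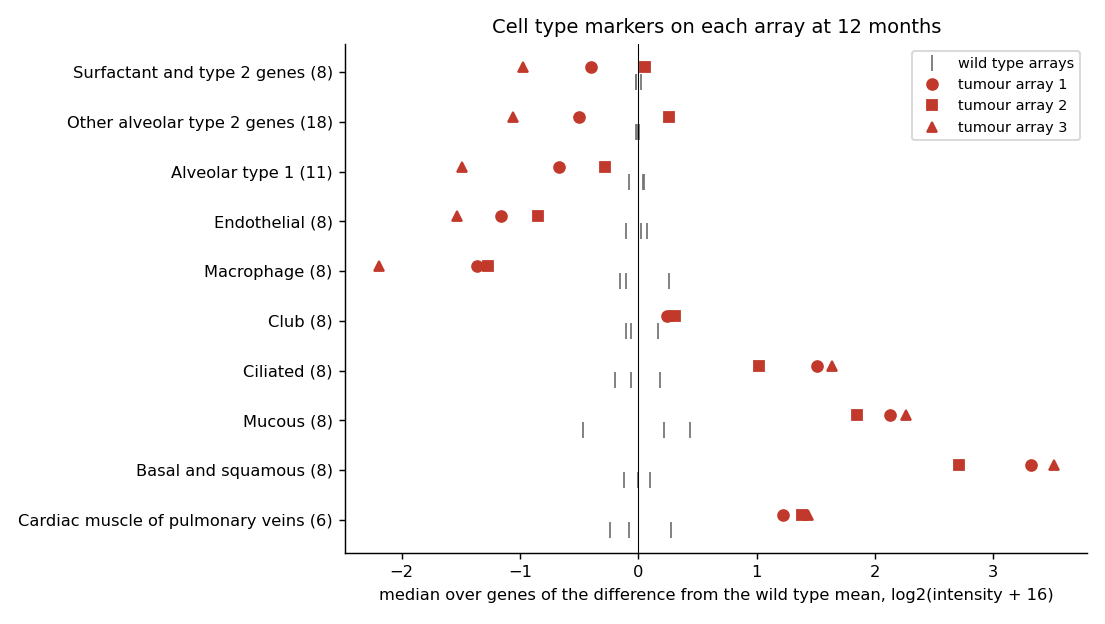
Median over the genes of each marker list of the difference from the wild type mean of 12 months, in log2(intensity + 16), for each tumour (circle, square and triangle for tumours 1, 2 and 3) and each wild type array (ticks), with the number of genes in brackets. The surfactant genes run from -0.97 in tumour 3 to 0.06 in tumour 2, alveolar type 1, endothelial and macrophage lists are below wild type in all 3 tumours, and ciliated, mucous and basal lists are above it.

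At 7 months, before tumours, S100g was the 1 gene of the 8 called higher in the mutant lungs, beside 6.42% of all genes. It read 1066, 1184 and 1086 units in wild type and 1496, 1531 and 1460 in mutant lung, so that every mutant array was above every wild type array. The difference was 0.42 ± 0.07 (SE), or 1.34-fold, with an adjusted p of limma of 0.00535. Among the alternatives its adjusted p ran from 0.000763 to 0.685. The highest came from a common fit of all 15 arrays, whose spread includes the tumours with their SD of 1.41 for S100g. Wild type array 3, the one with the male pattern, lay between the other wild type arrays.

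Slc34a2 and Abca3 were also higher on every mutant array but were not called. Slc34a2 read 8167, 8599 and 8021 units in wild type and 9410, 9286 and 9187 in mutant lung, a difference of 0.17 ± 0.06 (SE, adjusted p of limma 0.130). Abca3 read 3322, 3720 and 3422 units against 4220, 4637 and 3943, a difference of 0.29 ± 0.08 (adjusted p of limma 0.0733), and it passed the threshold in 4 of 18 alternatives, with adjusted p-values from 0.0109 to 0.892. Napsa, at 3294, 3259 and 2947 against 3440, 3750 and 3412 units, did not overlap either and differed by 0.16 ± 0.07 (0.244). These 3 genes and S100g make 4 of 8 with every mutant array above wild type, which held for 15.2% of all genes.

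The 4 surfactant protein genes overlapped between wild type and mutant lung at 7 months. Sftpa1 averaged 12407 ± 283 units in wild type and 12911 ± 469 in mutant lung (SD, n = 3 each), and Sftpb 8800 ± 292 and 9187 ± 478. Sftpc averaged 12374 ± 369 and 12405 ± 596, and Sftpd 8270 ± 480 and 8659 ± 160. Their differences of 0.06, 0.06, 0.00 and 0.07 took the other sign, at -0.03, -0.03, -0.09 and -0.02, when arrays were centred on their medians. In all, 1 of 8 genes was called higher and 0 lower by limma, against 6.42% and 1.39% of all genes. At an unadjusted p of limma under 0.05 stood 3 of the 8 genes and 4242 of all 18193. The median difference of the 8 genes was 0.11 beside 0.01 for all genes.

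**Figure D4:**
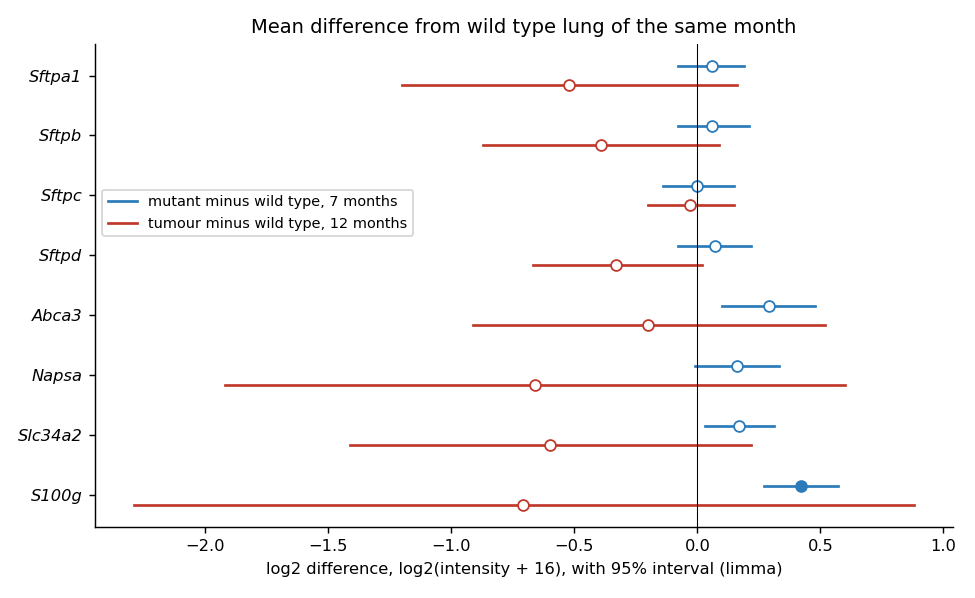
Mean difference from wild type lung of the same month in log2(intensity + 16), with the 95% interval of limma, for mutant lung at 7 months (blue) and tumours at 12 months (red). A filled circle marks a called gene and an open one a gene not called: only S100g at 7 months is filled, and every tumour interval includes 0.

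Wild type lung at 12 months read higher than at 7 months, without overlap, for Sftpa1, Sftpd, Slc34a2 and S100g. How many of all genes did the same was not counted, so this is not shown to be particular to these genes. S100g averaged 1112 units in wild type lung at 7 months, 1496 in mutant lung at 7 months and 1691 in wild type lung at 12 months, in that order and without overlap, while the tumours ran from below the first to above the last. Slc34a2 averaged 8262 units in wild type lung at 7 months, 8888 in wild type lung at 12 months and 9294 in mutant lung at 7 months, again without overlap, with the tumours spanning all 3. For Sftpa1, Sftpb and Sftpc, neighbouring groups in the order of means overlapped. For Napsa the wild type groups overlapped each other, and for Abca3 only mutant lung stood apart from both wild type groups. Ages were measured as separate sets, so age and set cannot be told apart, and the genotype effects were each taken against wild type of the same month.

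The difference between the effect at 12 months and that at 7 months was negative for all 8 genes. It was -1.13 ± 0.66 (SE) for S100g, -0.82 ± 0.52 for Napsa, -0.77 ± 0.34 for Slc34a2, -0.58 ± 0.28 for Sftpa1 and -0.03 ± 0.08 for Sftpc. By limma, 0 of 8 genes were called (adjusted p from 0.178 for Sftpd to 0.903 for Sftpc), while 1.75% of all genes were called higher and 1.41% lower. An unadjusted p of limma under 0.05 was reached by 3 of the 8 and by 3427 of all 18193 genes. Without tumour 2, all genes but Sftpc were called lower, 7 of 8. Tumour 2 had been noticed as the highest for these 7 genes. Leaving it out had to lower their tumour means, so the count is a description. The share of all genes called in the fit without it was not counted, and the shares above are of the full fit. S100g then stood at -1.89 and Abca3 at -0.83, with adjusted p-values of limma of 0.00238 and 0.00659, within ranges over the alternatives of 0.00238 to 0.686 and 0.00659 to 0.83.

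Other genes of the type 2 cell, 18 measured of 19 listed, were mostly higher at 7 months. In mutant lung 9 were called higher and 1 lower, with a median difference of 0.45, where 6.42% of all genes were called higher and 1.39% lower. Pon1, a lactone-cleaving esterase, rose from 1898 to 4604 units on average (2.41-fold, adjusted p of limma 0.000324), Bex2 2.22-fold and Hc, the complement component C5, 1.45-fold. Acoxl, related to peroxisomal acyl-CoA oxidases, fell 1.48-fold. In the tumours 1 of the 18 was called higher, Pon1 at 3.75-fold, and 1 lower, Chil1 at 2.44-fold, a chitinase-like protein, near the shares of all genes, 9.23% and 6.02%. Their median by tumour was -0.50, 0.26 and -1.06, in the same order as the surfactant genes.

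Markers of other cell types also moved in mutant lung at 7 months. All 8 ciliated markers were called higher, with a median of 1.15 and a summed level of 5049 to 5984 units against 2236 to 2365 in wild type lung. Of the mucous markers 5 of 8 were called higher (median 1.80), of the measured basal and squamous markers 3 of 8 (1.04) and of the club cell markers 4 of 8 (0.21). Of the endothelial markers 2 of 8 were called lower (median -0.33), of the alveolar type 1 markers 2 of 11 (-0.16), and of the macrophage markers 0 of 8 in either direction by limma, with 0 at an unadjusted p under 0.05 (0.03). Among all 18193 genes, 6.42% were called higher, 1.39% lower, and 4242 had an unadjusted p of limma under 0.05. Of 6 cardiac muscle markers, 1 was called higher (0.22). The part of these cell types in the values of S100g and the other type 2 genes at 7 months was not tested.

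Among 26 measured genes of surfactant lipid synthesis, processing and clearance, 4 were called higher at 7 months and 0 lower, with a median of 0.05, beside 6.42% and 1.39% of all genes. Among these were Lpcat1, an acyltransferase that makes surfactant phosphatidylcholine (1.31-fold, adjusted p of limma 0.00899), and the fatty acid desaturase Scd1 (1.52-fold, 0.0155). The others were the lipogenic regulator Srebf1 (1.21-fold, 0.0194) and the fatty acid synthase Fasn (1.32-fold, 0.0243). In the tumours 0 were called higher and 5 lower by limma, with a median of -0.28, beside 9.23% and 6.02% of all genes. Pparg fell 3.28-fold, the lysosomal lipase Lipa 2.73-fold, Csf2ra and Csf2rb, the subunits of the GM-CSF receptor, 1.80-fold and 1.64-fold, and the sterol exporter Abcg1 1.57-fold. As background, GM-CSF signalling and Pparg act in alveolar macrophages, which clear surfactant. In the same comparison 5 of 8 macrophage markers were called lower, beside 6.02% of all genes. Siglecf and Itgax had the largest falls of the 8, 5.70-fold and 4.27-fold. Marco, Mrc1 and Chil3, lower by 4.09-fold, 1.41-fold and 1.39-fold, were not called. The part of macrophages in the values of these lipid genes was not tested.

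Of 15 regulators of surfactant genes, 3 were called higher and 3 lower in the tumours, with a median of -0.32, beside 9.23% and 6.02% of all genes. At 7 months 3 were called higher and 0 lower, with a median of 0.08, beside 6.42% and 1.39%. Klf5, Sox9 and Foxa1 rose in the tumours, 2.87-fold, 3.52-fold and 2.26-fold, and in mutant lung at 7 months, 1.27-fold, 2.21-fold and 1.5-fold. Sox9, a factor of the lung bud tip, was dim, at 45.2 units in wild type lung and 203 in the tumours. Tcf21, Id2 and the glucocorticoid receptor Nr3c1 fell in the tumours, by 1.32, 0.60 and 0.58 on the log2 scale. Nkx2-1, the lung lineage factor that drives surfactant genes, averaged 195 ± 22.2 units in wild type lung and 140 ± 21.7 in tumours (SD, n = 3 each, adjusted p of limma 0.0835). The Nkx2-1 probe set was dim: in wild type lung at 7 months it averaged 73.3 units, below the array medians of 90.9 to 99.5. Its values in tumours 1, 2 and 3, 160, 143 and 117, did not follow the order of the surfactant genes. Etv5, a factor of type 2 cell upkeep, did follow that order, at 828, 1857 and 507 units against 1856 to 2122 in wild type lung (adjusted p of limma 0.150). Foxa2, Cebpa, Gata6 and Fgfr2 of the same list followed it as well. That order was found in 19.9% of all 18193 genes, so it does not single out Etv5.

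The genes whose pattern was most like the mean of the 8 over all 15 arrays, each taken against wild type of its month, were Cxcl15, Tmem243, Lpcat1, Dram1 and Lgi3. Their Pearson correlations with that mean were 0.984, 0.981, 0.977, 0.975 and 0.974, the highest of 11108 genes compared. Cxcl15, a chemokine made in lung epithelium, read 6851, 11601 and 4554 units in the tumours against 9012 to 10206 in wild type lung. Lpcat1 read 1762, 4484 and 1034 against 3437 to 3750. Both had tumour 2 above and the other tumours below every wild type array. Among the 8 genes, which make up the mean, the correlation was highest for Slc34a2 (0.993) and lowest for Sftpb (0.822) and Sftpc (-0.004). All of these correlations share the same 15 arrays.

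Other probe sets of the genes gave a partly different picture. The second probe set of Sftpa1 differed from wild type by -0.78, 0.03 and -1.44 in tumours 1, 2 and 3, in the same order as the first. The second of Abca3 read -0.46, 0.44 and -0.73, and at 7 months it stood at 0.45, which was called (adjusted p of limma 0.0109). The third of Abca3 was dim, at 84.4 to 183 units, read -0.43, 0.53 and -0.47 in the tumours and stood at 0.03 at 7 months. The second of Napsa, at only 254 to 422 units, read 0.09, 0.34 and -0.27, with a mean tumour difference of 0.05 beside -0.66 for the first. That of Sftpc was dim, at 8.19 to 104 units, and differed by 0.50 in the tumours, where the bright one differed by -0.03.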

How the data were processed

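The authors deposited linear intensities, from 0.48 to 17030, for 45101 probe sets on 15 arrays. Per the labels' protocols, TRIzol RNA was cleaned with an RNeasy kit and made into biotinylated cRNA from the 3' end of transcripts. Scanner processing and scaling: not given in the sources used here. The platform annotation gives 1 gene for 34958 probe sets and several for 932, and 9211 are unnamed here. One probe set per gene, with the highest mean, left 18193 genes.

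Intensities were taken as log2(intensity + 16) and compared by two-sided tests of limma 3.58.1 (eBayes after lmFit, R 4.3.3), with Benjamini-Hochberg adjustment over all genes. Comparisons at 12 months used their 6 arrays, those at 7 months 9 arrays, and the difference of effects all 15. A further allele of the mutant genotype and a further group of 3 arrays at 7 months are not reported here. That group enters the estimate of the spread, the choice of probe sets and the likeness between genes. The steps were tested on simulated data.

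The genes and gene lists were chosen with earlier results of these data known. Named genes were all 9 genes, up to 4 called genes per list and comparison by smallest adjusted p, the 5 genes most like the mean of the 8, and defining markers of the lists. Further genes were named after their values were seen: Abcg1, Id2 and Nr3c1 to complete small counts, and Acoxl as the 1 called lower in its list. Etv5, Foxa2, Cebpa, Gata6 and Fgfr2 were so named for their order over the tumours. Siglecf, Marco, Mrc1 and Chil3 were so named for the range of falls in their list. The alternatives were quantile normalization, median centring, pseudocounts of 1 and 64, a filter on dim genes, the mean of all probe sets, each other probe set, a variance trend with robust fitting, other choices of arrays, 1 male wild type array, a replicate block and leaving out each array.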

Additional observations from a re-analysis of the deposited data

Results flagged for a closer look

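The effects in the tumours at 12 months and in mutant lung at 7 months were each taken against wild type of its month. They differed by limma for 8 genes of the type 2, surfactant lipid and regulator lists. Called lower were 4 of 18 other type 2 genes and 3 of 26 lipid genes, and called higher was 1 of 15 regulators. Of all 18193 genes, 1.75% were called higher and 1.41% lower, and 0 of the 8 genes of the main set were called. The difference was -1.89 for Chil1, -1.22 for Fabp5, -1.13 for Il33 and -0.86 for Muc1 among other type 2 genes. It was -0.74 for Fasn, -1.30 for Lipa and -1.68 for Pparg among the lipid genes. Among the regulators it was 1.17 for Klf5, all on the log2 scale. Wild type lung averaged higher at 12 than at 7 months for each of these genes but Klf5 (447 against 719 units). In wild type lung at 12 and 7 months, Chil1 averaged 11345 and 4293 units, Fabp5 11178 and 5480 and Il33 5725 and 2216. Tumours and mutant lung averaged 4783 and 6103 units for Chil1, 6789 and 7369 for Fabp5 and 4233 and 3618 for Il33. Age and set cannot be told apart, so these differences do not measure a change from mutant lung to tumour. For Sftpd the difference was -0.39: every tumour was below, and every mutant array above, the wild type mean of its month, and the test of the difference itself did not pass (adjusted p of limma 0.178).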

How the results depend on the processing

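Over the alternatives for the 8 genes, 380 values kept their direction and side of the threshold, 16 came to pass it, 1 no longer passed and 18 changed sign. The count called lower in the tumours, 0, became 1 (Sftpd) in a common fit of all 15 arrays and ranged from 0 to 3 when each array was left out. That called lower for the difference between ages ranged from 0 to 7. The count called higher at 7 months, 1, became 2 with a pseudocount of 64 and with the brighter genes alone, 3 with a variance trend and 0 in the common fit. In none of these alternative fits was the share of all genes called counted. Signs changed for values near 0 or on other probe sets. Sftpc in the tumours moved to 0.24 with the mean of all probe sets, 0.01 against the male wild type array and 0.50 on its second probe set, and its difference between ages to 0.08 and 0.19 with the mean and the second probe set. Napsa on its second probe set read 0.05 in the tumours, -0.15 at 7 months and 0.20 between ages. Median centring gave -0.03 for Sftpa1, -0.03 for Sftpb, -0.09 for Sftpc and -0.02 for Sftpd at 7 months, and quantile normalization -0.03 for Sftpc. With each array left out, Abca3 in the tumours ranged from -0.54 to 0.07, Sftpc at 7 months from -0.04 to 0.03 and Sftpc between ages from -0.05 to 0.01. The cause was not tested. With the replicate number as a block, the count called higher at 7 months was 1, and S100g had an adjusted p of limma of 0.0108. The labels do not say that the numbers pair the arrays. Same-numbered deviations of wild type and mutant arrays correlated at -0.18, 0.08 and -0.18. As deviations from means of 3 arrays, these cannot decide whether arrays were paired. The number of arrays limits the precision.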
